A study of Homo sapiens with 2 samples.

Results

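The miR-10 and miR-196 microRNAs are made from hairpins that lie within the HOX gene clusters. They were taken as every entry of the deposited count table whose hairpin was hsa-mir-10a, hsa-mir-10b, hsa-mir-196a-1, hsa-mir-196a-2 or hsa-mir-196b. This gave 9 of 2363 entries, 8 of 2042 mature miRNA names and 5 of 1600 hairpins. The small RNA came from hCMEC/D3, a line of human brain capillary endothelium that was immortalised and stands in for the blood-brain barrier in culture. Its libraries were 2 in number, labelled replicate 2 and replicate 8, with no other group. The labels name no treatment and no passage, and do not say whether the libraries came from separate cultures, so their difference may be technical.

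HOX genes encode transcription factors that give cells their position along the body axis, and the members of each cluster are switched on in the order in which they lie on the chromosome. The forebrain and midbrain develop outside the HOX domain, whereas trunk and limb tissues keep a HOX profile into adult life. The miR-10 hairpins sit beside the HOX4 genes and the miR-196 hairpins beside the HOX9 and HOX10 genes, and both families are known to repress HOX transcripts. In endothelial cells miR-10a is known as a regulator of inflammatory signalling, and miR-10b as a miRNA of migrating and sprouting cells.

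The mature sequences below are from RefSeq (GRCh38.p14 tables), which held 7 of the 8 names; miR-10b-5p is named only. They are shown 5′ to 3′, with the seed (bases 2 to 8, which pair with targets) in capitals, because the seeds define the families and the 3p arms tell the miR-10 hairpins apart.
miR-10a-5p: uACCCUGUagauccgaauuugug
miR-10a-3p: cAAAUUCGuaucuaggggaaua
miR-10b-3p: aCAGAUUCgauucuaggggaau
miR-196a-5p: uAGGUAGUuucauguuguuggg
miR-196b-5p: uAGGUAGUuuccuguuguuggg
miR-196a-3p: cGGCAACAagaaacugccugag
miR-196b-3p: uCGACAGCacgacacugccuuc

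The guide strands miR-196a-5p and miR-196b-5p shared the seed AGGUAGU and differed by A12C (miR-196a-5p base first, counted from the 5′ end). No other of the 2370 mature names in the RefSeq table had this seed. The 3p arms of mir-10a and mir-10b had different seeds, and their longest common stretch was 11 bases, at bases 11 to 21 of miR-10a-3p.

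All hairpin positions are from exact matches of the RefSeq hairpins to GRCh37, the build that corresponds to the hg19 of the submitters' processing notes. MIR10A occupies bases 46657200 to 46657309 of chromosome 17 on the minus strand, 1488 bases from HOXB4. It is spanned by 6 HOXB3 transcripts on its strand, none of which has an exon there, and by 1 unnamed lncRNA transcript that does. MIR10B occupies bases 177015031 to 177015140 of chromosome 2 on the plus strand, 1138 bases from HOXD4 and intronic in 1 HOXD3 transcript. MIR196A1 occupies bases 46709852 to 46709921 of chromosome 17 on the minus strand, intronic in 1 HOXB7 transcript and 6132 bases from HOXB9. MIR196A2 occupies bases 54385522 to 54385631 of chromosome 12 on the plus strand, intronic in 1 HOXC6 transcript, 1459 bases from HOXC10 and 3048 bases from HOXC9. MIR196B occupies bases 27209099 to 27209182 of chromosome 7 on the minus strand, 1042 bases from HOXA10. It is spanned by 3 HOXA9 transcripts, of which 1 has an exon there, and by 3 transcripts of HOXA10-AS on the opposite strand, of which 2 have one.

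**Figure D1:**
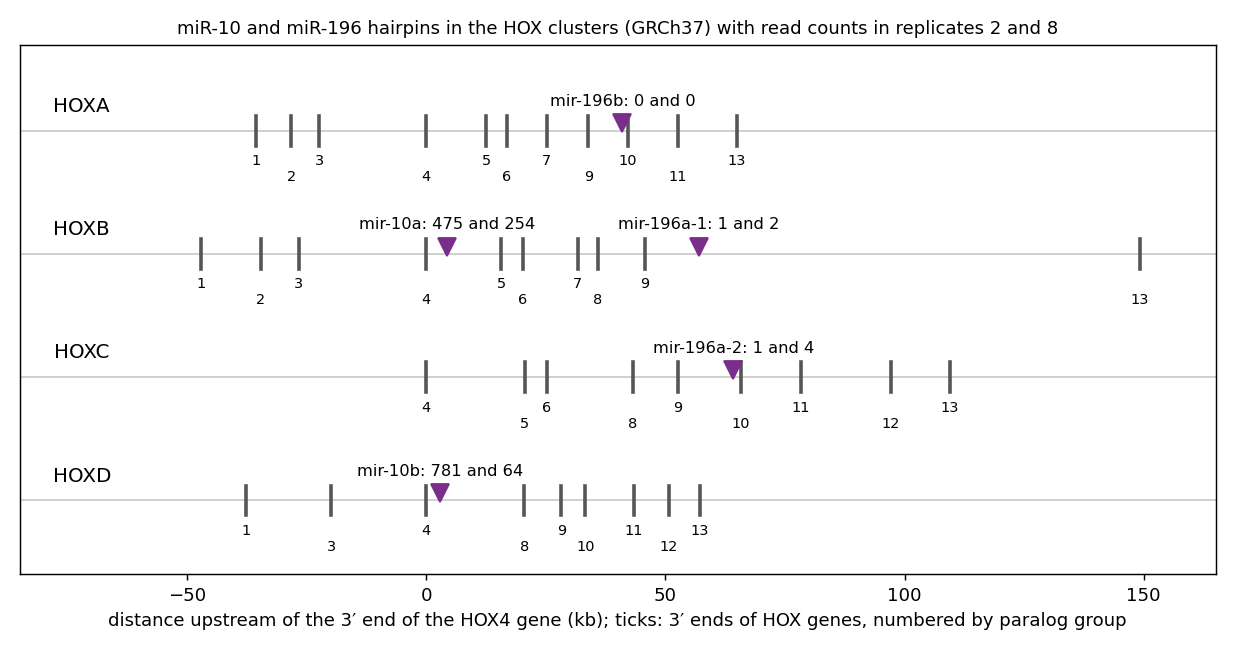
Hairpins of miR-10 and miR-196 (triangles) along the HOXA to HOXD clusters, with the distance upstream of the 3′ end of the HOX4 gene in kb on the x axis; ticks are the 3′ ends of HOX genes, numbered by paralog group, and the numbers beside each hairpin are its summed raw counts of both arms in replicates 2 and 8. The hairpins beside HOXB4 and HOXD4 had 475 and 254 and 781 and 64 counts, and the 3 hairpins in the HOX9 and HOX10 region had at most 4.

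Depth was nearly equal: with 1 entry per mature name, replicate 2 held 2721287 counts and replicate 8 held 2727675. A count of 0 was taken to allow up to 3 counts, a one-sided limit that equals 1.10 CPM (counts scaled to these totals) in either library. The two-sided 95% Poisson interval of a count of 0, as for miR-196b-5p, is wider and reaches 3.69 counts or 1.41 CPM. Detection was set at 10 counts in each library. The labelled cell type was checked by miR-126-3p, the defining endothelial miRNA, which was at 112226 ± 4003 CPM (SD, n = 2) and was the most abundant miRNA in both libraries. Since no molecular identifiers are named in the labels, several reads can stem from 1 molecule, and all intervals, detection limits and tests on counts below cover counting error only.

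The miR-10 guide strands were the only detected members, and both were lower in replicate 8. Most of the 2042 mature names were not detected either: a count of 10 ranked 578th in replicate 2 and 560th in replicate 8. The HOXB-embedded miR-10a-5p had 470 counts in replicate 2 (95% Poisson interval 428 to 514) and 253 in replicate 8 (223 to 286). It ranked 177th and 214th among the 2042 mature names. The HOXD-embedded miR-10b-5p had 777 counts in replicate 2 (723 to 834) and 64 in replicate 8 (49.3 to 81.7), and ranked 152nd and 338th. Replicate 2 was the higher for both miRNAs, and how common a difference between the libraries was among all names is given with the tests below. Over both libraries miR-10a-5p was at 133 ± 56.5 CPM (SD, n = 2) and miR-10b-5p at 154 ± 185 CPM, so the means of the paralogs differed by less than their spread.

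The passenger strands of the same hairpins were near the limit of detection. The count of miR-10a-3p was 5 in replicate 2 and 1 in replicate 8, and that of miR-10b-3p was 4 and 0. In 2 libraries of this depth neither arm reached 10 counts, and neither was tested between the libraries at the minimum of 10 summed counts.

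Of the miR-196 family, no member reached more than 3 counts in either library. The guide strand miR-196a-5p is made by both MIR196A1 and MIR196A2, whose reads cannot be separated where they cover only the mature sequence. Its entry for mir-196a-1 had 1 count in replicate 2 and 2 in replicate 8, and its entry for mir-196a-2 had 1 and 3. The passenger strand miR-196a-3p, which comes from MIR196A2, had 0 and 1. Both arms of hsa-mir-196b, the hairpin of the HOXA cluster, had no count in either library, which allows up to 1.10 CPM each by the one-sided limit. These values are at or under the level that a count of 0 allows, so no fold between the libraries is given for miR-196. Having no count was common, since only 1134 of all 2042 mature names had at least 1 summed count.

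**Figure D2:**
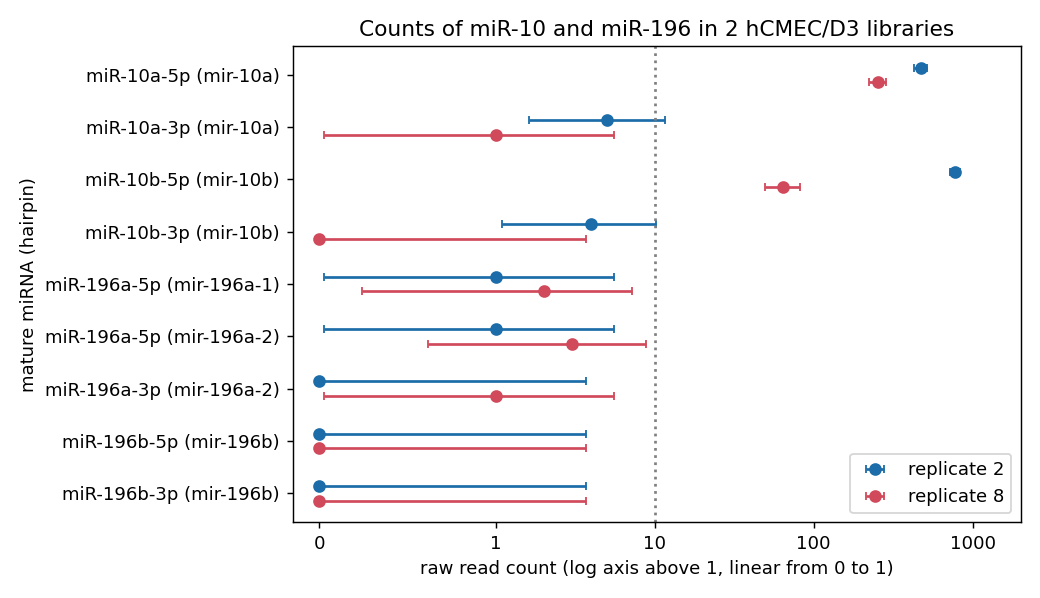
Raw read count of each mature miRNA, with its hairpin in parentheses, in replicate 2 and replicate 8; points are counts, bars are 95% Poisson intervals, the x axis is logarithmic above 1, and the dotted line marks the detection minimum of 10. The miR-10 guide strands sit between 64 and 777 counts, and all other members at 5 or fewer.

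Summed by HOX cluster, the members gave 781 counts in replicate 2 and 64 in replicate 8 for HOXD, and 476 and 256 for HOXB. For HOXC the sums were 1 and 4, and for HOXA 0 and 0. The reads of miR-196a-5p can be in the sums of both HOXB and HOXC. The cluster with the most counts was HOXD in replicate 2 and HOXB in replicate 8. Other small RNA hairpins of the clusters were also low: miR-615-3p, from an intron of HOXC5, had 6 and 1 counts, miR-615-5p had 4 and 0, and miR-3185, beside HOXB13, had no count in either library. With 1 entry per mature name, all 8 members held 0.0462% of the replicate 2 counts (Wilson 95% interval from 0.0437 to 0.0488) and 0.0118% of those of replicate 8 (from 0.0106 to 0.0132).

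The libraries were then compared with each other, since there was no second condition. For every mature name with at least 10 summed counts, a two-sided exact binomial test compared the count in replicate 8 with the share of all counts that this library held, with Benjamini-Hochberg adjustment over the 695 names tested. The test compares 2 libraries, not conditions. This minimum was reached by 695 of all 2042 mature names and by 2 of the 8 members, the miR-10 guides. Both passed at 0.05 and both were lower in replicate 8, against a background of 34.2% of all tested names that passed and 23.5% that passed and were lower in replicate 8. Both guides had at least 100 summed counts. With the test limited to the 367 such names, 212 passed, 136 of them lower in replicate 8. A call alone was therefore common among miRNAs, and the sizes are given next.

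For miR-10b-5p the log2 ratio of replicate 8 over replicate 2 was -3.59 (95% interval -4.00 to -3.24; exact binomial adjusted p = 2.22e-155), which is a level 12.1-fold higher in replicate 2 (9.42 to 16.0). Among the 367 names with at least 100 summed counts, it had the second lowest ratio, after miR-199a-5p at -3.73 (-5.18 to -2.73), and the intervals of these neighbours overlapped. For miR-10a-5p the log2 ratio was -0.90 (-1.12 to -0.67; exact binomial adjusted p = 5.07e-15), which is 1.86-fold higher in replicate 2 (1.59 to 2.18) and the 12th lowest of the 367. The median log2 ratio of these 367 names was -0.10 and their median absolute ratio 0.21, and both miR-10 guides exceeded that median absolute ratio.

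**Figure D3:**
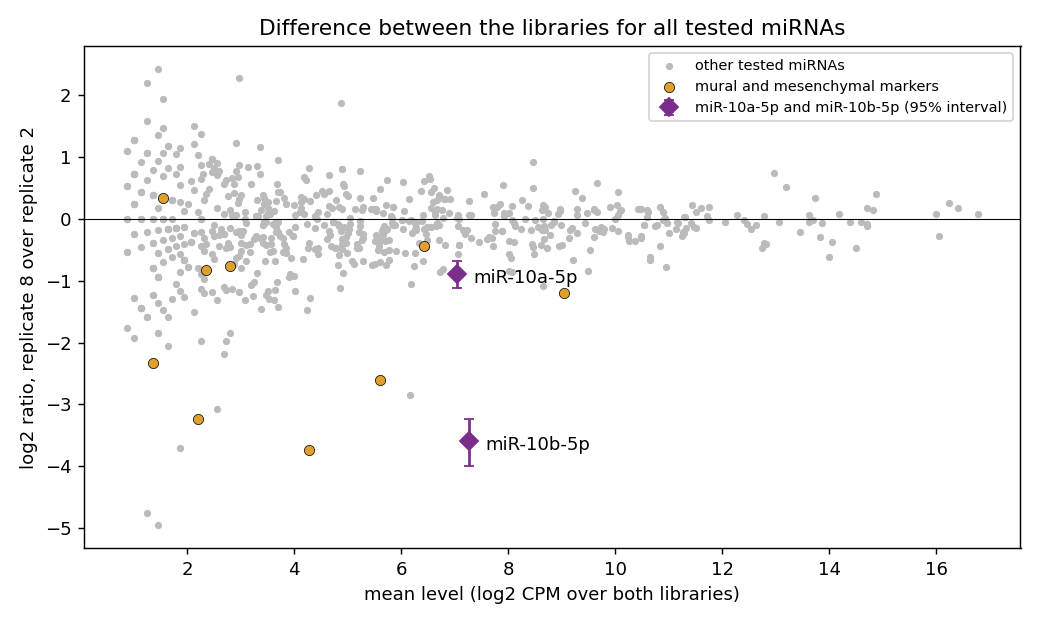
Log2 ratio of replicate 8 over replicate 2 against the mean level in log2 CPM for the 695 tested miRNAs (grey), with the miR-10 guide strands as diamonds with 95% intervals and the mural and mesenchymal markers in orange. At their level the diamonds lie below most points, with miR-10b-5p at -3.59 and miR-10a-5p at -0.90.

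Some markers of other cell types were also lower in replicate 8, and their counts are read against the 23.5% of all tested names that were called lower and the 10.8% called higher. The marker lists were chosen with earlier results of these data known, so this comparison is not an independent one. Of 9 mural and mesenchymal markers (both arms of miR-143, miR-145, miR-199a and miR-214, and miR-199b-5p), 6 were lower in replicate 8 by the exact binomial test and none higher, and their sum was 985 CPM in replicate 2 and 422 CPM in replicate 8. The median log2 ratio of the 9 was -1.20, none was at 0 in both libraries, and miR-143-3p gave most of the sum with 2000 and 871 counts. Both arms of miR-199a and both arms of miR-214 were among the 6. The arms of a hairpin come from the same transcript, so the 9 are not independent markers. Of 8 epithelial markers, 7 were tested, 4 were lower and none higher, with sums of 142 and 89.8 CPM. The 4 were miR-200a-3p, miR-200b-3p, miR-205-5p and miR-429, and the last 2 had no count in replicate 8. Not called were miR-375 (106 and 98 counts), miR-203a (30 and 32) and miR-200c-3p (118 and 85). The marker miR-141-3p had no count in either library. Of 7 blood markers, 3 were tested and all 3 were lower, with sums of 553 and 400 CPM, while miR-142-3p, miR-144-3p and miR-223-3p had no count in either library. With DESeq2 size factors 2 of the 3 blood markers passed. The endothelial pair of miR-126 arms summed to 110105 and 115735 CPM, with miR-126-3p called higher in replicate 8. Neural markers summed to 44.1 and 34.1 CPM and muscle markers to 12.9 and 9.90 CPM, with no call in either list, and the liver marker miR-122-5p was at 235 and 252 CPM and was called higher in replicate 8 with DESeq2 size factors only, of the 3 scalings tried. The part of these other miRNAs in the miR-10 difference was not tested. Whether cells of these other types were in the culture was not tested either. In RNA from a whole culture, fewer cells of a type and less RNA per cell cannot be told apart.

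Because both miR-10 guides moved the same way, their ratio was examined within each library, where library size cancels. The count of miR-10b-5p over that of miR-10a-5p was 1.65 in replicate 2 (95% exact interval 1.47 to 1.86) and 0.253 in replicate 8 (0.189 to 0.334). The order of the paralogs was thus opposite: miR-10b-5p held 62.3% of the pair in replicate 2 and 20.2% in replicate 8. The log2 ratio of the pair changed by -2.70 from replicate 2 to replicate 8 (Fisher's exact test, adjusted p = 1.71e-41 over 147 pairs of lettered paralogs). Of these pairs 30.6% passed at 0.05, and the median absolute change was 0.34. The miR-10 pair had the third largest absolute change. These paralogs are close in sequence, and how reads matching both were assigned is not given in the sources used here.

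**Figure D4:**
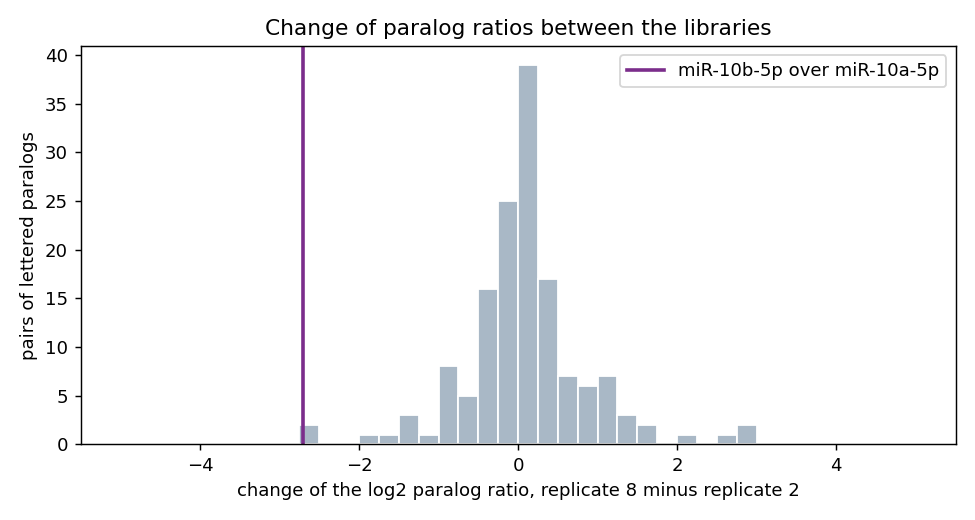
Number of pairs of lettered paralogs by the change of their log2 count ratio, replicate 8 minus replicate 2, for 147 pairs; the vertical line marks miR-10b-5p over miR-10a-5p. The line stands at -2.70, in the lowest bin that holds a pair.

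Arm choice showed no difference that the counts could resolve. The 5p arm of hsa-mir-10a held 98.9% of its reads in replicate 2 (Wilson 95% interval from 97.6 to 99.5) and 99.6% in replicate 8 (from 97.8 to 99.9). For mir-10b it held 99.5% (98.7 to 99.8) and 100% (94.3 to 100). By Fisher's exact test the adjusted p was 1 for both hairpins, over 279 hairpins of which 15.4% passed. For mir-10b in replicate 8 the 3p arm had 0 of 64 reads, which by the one-sided limit of 3 counts allows a share of up to 4.69%, and by the two-sided interval above somewhat more. Over both libraries, 75 of the 279 hairpins had a 5p share above 98%, the miR-10 hairpins among them. The arms of mir-196a-2 and mir-196b had too few counts for a share, and mir-196a-1 had a 5p entry only.

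The miRNAs nearest to miR-10a-5p in level, by the larger of their differences in log2(CPM + 1) over the 2 libraries, were miR-1908 (0.22), miR-3653 (0.30) and miR-1268a (0.31). Nothing lay as near to miR-10b-5p: the closest were miR-148a-3p (1.18), miR-497-5p (1.45) and miR-6087 (1.54). Of these, miR-148a-3p had 342 counts in replicate 2 and 47 in replicate 8, whereas miR-497-5p had 283 and 177 and miR-6087 had 266 and 128.

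Relatives of miR-10 from outside the HOX clusters were abundant. So were the let-7 guides, which are set beside miR-196 for a shared stretch only. The miR-99, miR-100 and miR-125 guides share ancestry with miR-10, and one of them and 1 let-7 guide are shown for comparison, with the seed of miR-100-5p and bases 3 to 9 of let-7a-5p in capitals.
miR-100-5p: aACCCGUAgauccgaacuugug
let-7a-5p: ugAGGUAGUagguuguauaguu

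The longest common stretch of miR-10a-5p and miR-100-5p was 11 bases, at bases 7 to 17 of the former and 6 to 16 of the latter. The 5 listed relatives of miR-10 held 18.6% of the counts in replicate 2 and 17.4% in replicate 8. Of these, 4 were lower in replicate 8 and 1, miR-100-5p, was higher, with a median log2 ratio of -0.30. By comparison, 23.5% of all tested names were called lower. With the test limited to the 367 names of at least 100 summed counts, 136 were lower and 76 higher. Their summed count was 405 times that of the miR-10 guides in replicate 2 and 1495 times in replicate 8, with the limit that ligation captures different small RNAs unequally. The seed of miR-196 recurs at bases 3 to 9, 1 base further in, of 9 names in the RefSeq table, 8 of which are let-7 or miR-98 guides. The list summed next also holds let-7e-5p, which is not among those names. The 9 listed let-7 and miR-98 guides held 8.56% and 10.4% of the counts, 7 of them higher and 1 lower in replicate 8. By comparison, 10.8% of all tested names, and 76 of the 367 with at least 100 summed counts, were called higher. At such high counts small shifts were called, as for let-7e-5p at a log2 ratio of 0.07. With TMM or DESeq2 scaling all 9 were higher, as were 105 and 111 of the 695 tested names.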

How the data were processed

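The authors deposited raw counts and RPM (reads scaled to 1 sum per library) per pair of mature miRNA and precursor, per the file headers. Per the submitters' processing notes, CASAVA 1.9, FastQC, cutadapt, Bowtie 0.12.7 and hg19 were used; the counter and the miRBase release are not given in the sources used here. Per the labels' protocols, adaptor-ligated cDNA was amplified by PCR and size-selected on a gel, so ligation and PCR shape the counts.

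The entry with the highest mean count was kept per mature name, and CPM used these totals. Tests were computed in Python 3.11.15 with SciPy 1.17.1; 0.5 counts were added before log2 ratios; edgeR 4.0.16 (TMM) and DESeq2 1.42.0 gave alternative library sizes. With 1 group no edgeR test of conditions was possible. Arm tests needed 10 counts in each library, summed over both arms, and paralog tests 10 summed counts for each of the pair. The tests were checked on simulated data that held Poisson counting error only. That check does not cover other variation between libraries. Named miRNAs were all members, the 3 nearest in level to each detected member, and listed relatives, let-7 guides and markers. However, miR-199a-5p was named after its values were seen. The members and lists were chosen with earlier results of these data known. Hosts are from GENCODE v44 mapped to GRCh37. The listed hairpin mir-7704 was not analysed here.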

Additional observations from a re-analysis of the deposited data

How the results depend on the processing

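Each miR-10 guide still passed at 0.05 under its 6 alternatives. For miR-10a-5p the log2 ratio ranged from -0.90 to -0.79 (exact binomial adjusted p from 2e-15 to 7.2e-12). For miR-10b-5p it ranged from -3.60 to -3.49 (exact binomial adjusted p from 1.8e-156 to 1.31e-144). Not all of these alternatives could move the result. A minimum of 1 or 100 summed counts left both ratios unchanged and altered only the adjustment of p, and adding 1 count altered only the ratios. DESeq2 size factors shifted every log2 ratio by 0.10 and TMM by 0.09. Between the libraries 238 miRNAs differed (75 higher and 163 lower in replicate 8), with 105 higher and 119 lower by TMM and 111 and 113 by DESeq2 size factors. The summed member level was 290 CPM, 248 on the deposited RPM scale, 249 with repeated entries summed, and 118 without replicate 2 or 462 without replicate 8, so 1 library decides it. The 5p share of mir-10b over both libraries was 99.5%, and 100% without replicate 2, where 64 reads limit it. The paralog ratio changed by -2.70 in each of its 3 alternatives, which alter only the set of pairs; leaving out miR-548 and pairs of identical counts was chosen after seeing the data. With no minimum above 1 summed count, miR-10a-3p (exact binomial adjusted p = 0.338), miR-10b-3p (0.220), miR-196a-5p (0.818) and miR-196a-3p (1) did not pass. No paired analysis was possible because the libraries form 1 group and share no replicate number.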
